A study of Mus musculus with 8 samples.

Results

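The 9 genes studied here, which hold back the cell cycle or mark senescent and stressed cells, were read from the gene table of old mouse tibialis anterior (TA) muscle. They were chosen by symbol, and all 9 were among the 16686 genes of the table: the CIP/KIP inhibitors Cdkn1a, Cdkn1b and Cdkn1c, the INK4 inhibitors Cdkn2a, Cdkn2b and Cdkn2c, the p53 gene Trp53, its antagonist Mdm2, and the secreted factor Gdf15. The samples were TA muscles of male FVBN mice whose age tag reads 22 months, 4 wild type (WT Old) and 4 without Mybpc2 (C2-/-Old), which codes for fast skeletal myosin-binding protein C. In the C2-/- line exons 2 to 22 of Mybpc2 were replaced by a Neo cassette between 2 LoxP sites, so the change was carried by all cells throughout life, and neither genotype was treated. RNA was selected with oligo(dT), and the comparison asked how the aged muscle without the protein differed from aged WT muscle.

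Most of these genes act on the cyclin-dependent kinases (CDKs), which drive a cell through its division cycle by phosphorylating the retinoblastoma protein. INK4 inhibitors bind CDK4 and CDK6, CIP/KIP inhibitors bind CDK complexes more widely, and p53 switches on Cdkn1a after DNA damage while Mdm2, itself a p53 target, sends p53 to degradation. Muscle fibres are post-mitotic, so the dividing cells of a whole muscle are mostly satellite, stromal, vascular and immune cells, whereas Cdkn1a can also be made by the fibres themselves when they are denervated or stressed. In whole muscle, fewer cells of a type and less RNA per cell cannot be told apart.

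The 8 libraries held 25425993 to 29747692 assigned reads. Mybpc2 ranged from 4964 to 7392 CPM (reads of a gene scaled to the library total) in WT and from 3.85 to 38.3 CPM in C2-/- muscle, so every library matched its genotype label, and the highest C2-/- value was that of mouse 3. Fibre markers were abundant in each library, with summed levels of 139721 to 183378 CPM for 6 genes. In WT mouse 2, 15 of the tested genes exceeded 5 times the highest value of the other 7 mice, against 0 or 1 such gene in every other mouse, and this mouse held the highest value of 27.5% of all tested genes. The immediate early genes, whose mRNA appears within minutes of a stimulus, were high in WT mice 2 and 4 and C2-/- mouse 2, with Fos at 70.9 to 245 CPM there and 0.901 to 7.8 CPM in the other 5 mice.

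Cdkn1a, which codes for p21, has 2 annotated starts at chr17:29090979-29100722 (GRCm38.p6, plus strand), and the 150 bases before each are shown because Cdkn1a carried the widest spread of the set and is the textbook p53 target. Capitals mark the p53 element in the first and the GC boxes (GGGCGG) in the second. The first stretch, chr17:29090829-29090978, lies before the gene, and the second, chr17:29093619-29093768, lies in the intron of the transcript from the upstream start.
Cdkn1a, upstream start: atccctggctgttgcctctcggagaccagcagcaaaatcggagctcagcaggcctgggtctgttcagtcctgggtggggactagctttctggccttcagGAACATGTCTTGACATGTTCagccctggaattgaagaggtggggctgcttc
Cdkn1a, downstream start: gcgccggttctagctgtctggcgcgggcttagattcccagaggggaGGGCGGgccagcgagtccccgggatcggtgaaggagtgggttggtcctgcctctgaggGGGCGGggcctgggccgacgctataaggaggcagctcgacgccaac
The p53 element, 20 bases long and beginning 51 bases before the upstream start, was searched as a pair of joined p53 half-sites with at most 1 mismatch outside their cores. It occurred in 15 of the 32851 RefSeq promoter windows of 250 bases, or 0.0457%, and in no other window of the 9 genes, all of which but Cdkn1c had a window. GC boxes, searched on both strands, occurred in 32.7% of all windows. The FoxO element GTAAACA, present in 3.17% of windows, was found once among these genes, 153 bases before the start of Mdm2. The gene counts do not separate transcripts from the 2 starts of Cdkn1a.

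Cdkn1a stood at 29.5, 405, 22.6 and 39.7 CPM in WT mice 1 to 4 and at 24.1, 43.1, 26.8 and 28.6 CPM in C2-/- mice 1 to 4. A single animal set the spread: WT mouse 2, with 11095 reads against 604 to 1159 in the other 7, held 9.39 times the next highest level, while the remaining values of both genotypes overlapped. The WT mean was 124 ± 187 CPM (SD, n = 4) and the C2-/- mean 30.7 ± 8.5 CPM (SD, n = 4). The fitted log2 fold change of C2-/- over WT was −2.02 (SE 0.84, edgeR adjusted p = 0.918). Without WT mouse 2 it was 0.01 (SE 0.23, edgeR adjusted p = 0.999), and the other 3 WT mice averaged 30.6 ± 8.61 CPM. An exact two-sided permutation test on mean log2 CPM over all 8 mice gave p = 0.543, where 70 splits allow no p below 0.0286. The dispersion of Cdkn1a relative to the trend was at the 99.8th percentile of tested genes, and DESeq2 set its p aside as an outlier.

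**Figure D1:**
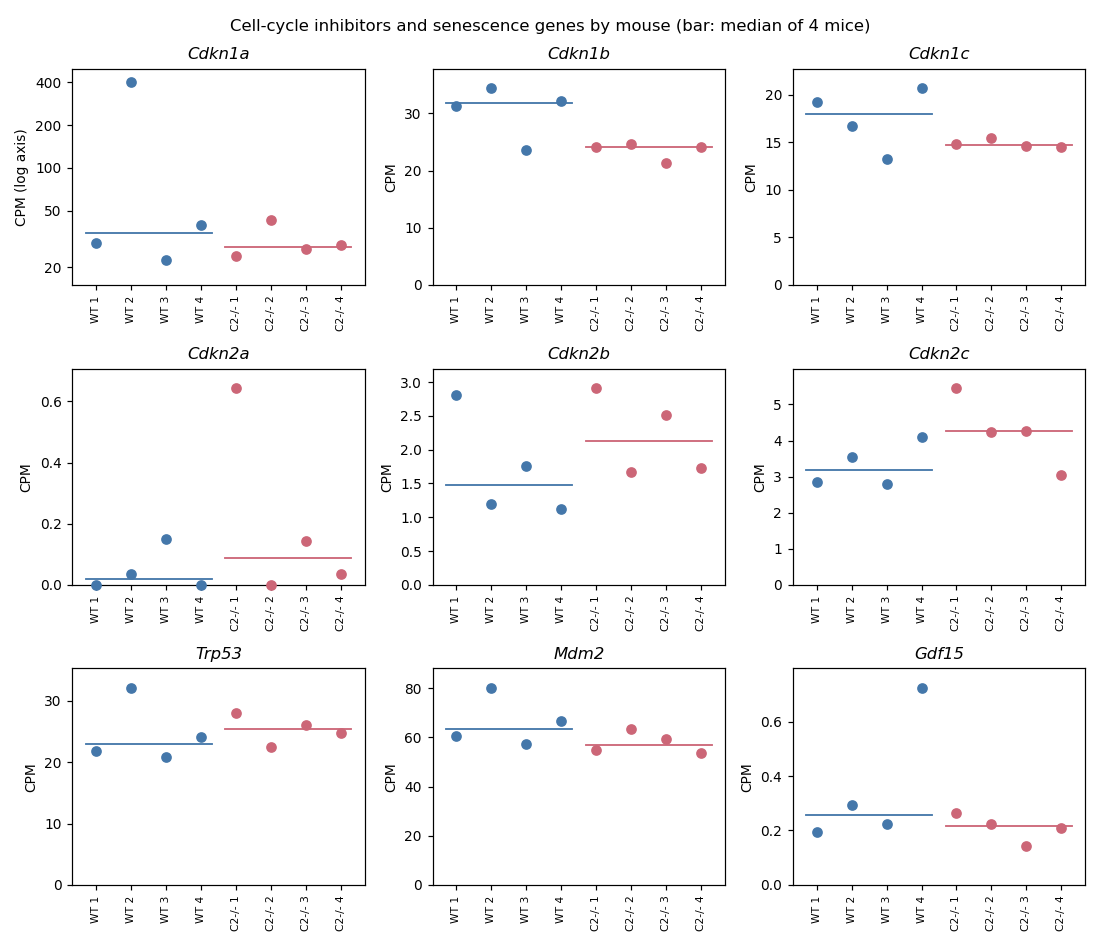
CPM of the 9 genes in each mouse, with blue points for the 4 WT and red points for the 4 C2-/- mice; lines are medians of 4 mice, and the Cdkn1a axis is logarithmic. Cdkn1a reached 405 CPM in WT mouse 2 and 22.6 to 43.1 CPM in the other mice, Cdkn2a had its highest value in C2-/- mouse 1 and Gdf15 in WT mouse 4.

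Cdkn1b (p27, chr6:134920401-134925525), an inhibitor that keeps cells in quiescence, stood at 31.3, 34.4, 23.6 and 32.2 CPM in WT and at 24.1, 24.7, 21.3 and 24.2 CPM in C2-/- muscle. Of the WT mice, 3 lay above every C2-/- mouse, and WT mouse 3 lay among them. The log2 fold change was −0.36 (SE 0.13, 95% interval −0.66 to −0.07, edgeR adjusted p = 0.849). Cdkn1c (p57, chr7:143458339-143461059), an imprinted inhibitor of the same family, stood at 19.2, 16.7, 13.3 and 20.7 CPM in WT and at 14.8, 15.5, 14.6 and 14.5 CPM in C2-/- muscle. As with Cdkn1b, WT mouse 3 was the low WT value, here below every C2-/- mouse. Its log2 fold change was −0.23 (SE 0.14, interval −0.55 to 0.09, edgeR adjusted p = 0.968). The C2-/- values of Cdkn1c varied little (SD 0.475 CPM) beside those of WT (SD 3.24 CPM), a difference in spread that was not tested.

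Cdkn2a codes for p16 and p19Arf from 2 starts (chr4:89274473-89294619), and the deposited gene counts do not separate them. It was close to undetected: WT mice 1 to 4 had 0, 1, 4 and 0 reads and C2-/- mice 1 to 4 had 17, 0, 4 and 1. The mice with 0 reads allow levels of up to 0.116 CPM (WT mouse 1), 0.109 CPM (WT mouse 4) and 0.112 CPM (C2-/- mouse 2), from counting error alone. C2-/- mouse 1, at 0.643 CPM, supplied 17 of the 22 C2-/- reads, and the other 3 C2-/- mice together had 5 reads, the number the 4 WT mice had together. Cdkn2a failed the filter on low counts. The C2-/- minus WT difference in mean was 0.159 CPM (exact two-sided permutation p = 0.543), and it was 0.0124 CPM without C2-/- mouse 1.

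Cdkn2b (p15, chr4:89306289-89311032, overlapped by the long non-coding RNA gene Gm12610) stood at 2.81, 1.2, 1.76 and 1.12 CPM in WT and at 2.91, 1.67, 2.52 and 1.73 CPM in C2-/- muscle. The genotypes overlapped, with mouse 1 highest in each. The log2 fold change was 0.36 (SE 0.34, interval −0.39 to 1.11, edgeR adjusted p = 0.968), and it was 0.7 without WT mouse 1 and 0.2 without C2-/- mouse 1. Cdkn2c (p18, chr4:109660876-109666756), the INK4 inhibitor made by differentiating muscle cells, stood at 2.85, 3.54, 2.8 and 4.09 CPM in WT and at 5.45, 4.24, 4.26 and 3.05 CPM in C2-/- muscle. In 3 C2-/- mice the level exceeded that of every WT mouse, and C2-/- mouse 4 lay within the WT range. Its log2 fold change was 0.35 (SE 0.22, interval −0.13 to 0.83, edgeR adjusted p = 0.968). All 3 INK4 genes of the set were highest in C2-/- mouse 1, beside 10.6% of all tested genes. Cdkn2b was so only by 2.91 against 2.81 CPM, and Cdkn2a had failed the filter. The remaining family member, Cdkn2d (p19Ink4d), ranged from 9.9 to 13.1 CPM over the mice, with 13.1 CPM in both C2-/- mouse 1 and WT mouse 2. Its log2 fold change was 0.01 (SE 0.14, edgeR adjusted p = 0.998).

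Trp53 (chr11:69580348-69591873) stood at 21.8, 32.1, 20.9 and 24.1 CPM in WT and at 28, 22.5, 26.1 and 24.8 CPM in C2-/- muscle, the highest value again in WT mouse 2. The log2 fold change was 0.04 (SE 0.15, interval −0.3 to 0.37, edgeR adjusted p = 0.996), and its sign turned when WT mouse 1 or 3 or C2-/- mouse 1 was left out. Mdm2 (chr10:117688875-117710758), the ubiquitin ligase that removes p53, stood at 60.7, 80.1, 57.4 and 66.6 CPM in WT and at 54.7, 63.3, 59.5 and 53.8 CPM in C2-/- muscle. It was highest in WT mouse 2 too, at 80.1 CPM against 53.8 to 66.6 CPM in the other 7. Its log2 fold change was −0.2 (SE 0.13, interval −0.48 to 0.09, edgeR adjusted p = 0.968), and −0.08 without WT mouse 2. Gdf15 (chr8:70629393-70632470), a hormone of the TGF-β family released by stressed cells, had 5, 8, 6 and 20 reads in WT and 7, 6, 4 and 6 reads in C2-/- muscle. Only WT mouse 4 stood out, at 0.724 CPM against 0.142 to 0.292 CPM in the other mice. Gdf15 failed the filter, its C2-/- minus WT difference in mean was −0.149 CPM (exact two-sided permutation p = 0.257), and it was −0.0267 CPM without WT mouse 4.

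Of the 9 genes 7 passed the filter, 3 with a higher and 4 with a lower fitted level in C2-/- muscle. None passed an adjusted p of 0.05 with edgeR, limma-voom or DESeq2 (which gave no p for Cdkn1a), against 4 of 12542 tested genes with edgeR (0.0319%), and their lowest edgeR adjusted p was 0.849. Cdkn1a and Cdkn1b, both lower, had an unadjusted p under 0.05, as did 1.91% of tested genes in that direction and 3.38% in the other. In 0 of the 7 the genotypes did not overlap, against 3.38% of tested genes. Their median log2 fold change was −0.2 and that of all tested genes −0.02. Leaving out WT mouse 2 moved Cdkn1a from the largest fitted change to the smallest of the 7.

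**Figure D2:**
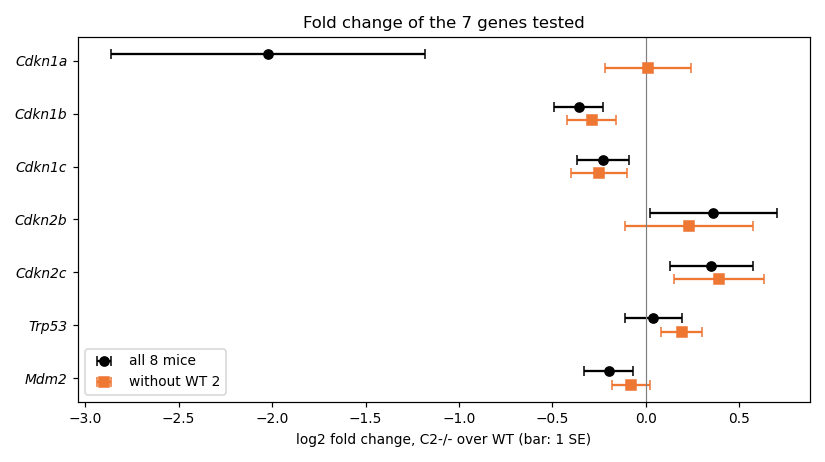
Log2 fold change of C2-/- over WT with 1 SE for the 7 genes tested, over all 8 mice (black circles) and without WT mouse 2 (orange squares). Cdkn1a moves from −2.02 to 0.01, while Cdkn1b, Cdkn1c, Cdkn2b and Cdkn2c keep their side of 0.

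Levels of different genes were ordered on the deposited TPM scale, which accounts for transcript length. Median TPM over the 8 mice was 35.9 for Mdm2, 28.8 for Cdkn1a, 26.5 for Trp53, 20.1 for Cdkn1b and 14.8 for Cdkn1c. Far lower came Cdkn2c at 3.78, Cdkn2b at 2.55, Gdf15 at 0.43 and Cdkn2a at 0.075 TPM. The ranges of neighbours in this order overlapped, except that no mouse had Cdkn2c above Cdkn1c (highest 5.84 against lowest 14 TPM) and none had Gdf15 above Cdkn2b (highest 1.26 against lowest 1.48 TPM). CIP/KIP inhibitors and the p53 pair therefore formed the abundant group, and the INK4 genes of the set and Gdf15 the scarce group, in both genotypes.

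WT mouse 2 was then followed through other gene lists, since it set the Cdkn1a comparison. Of the 10 genes of the glucocorticoid and FoxO list, which includes the atrophy ubiquitin ligases, 9 were highest in this mouse. Trim63 (MuRF1) stood at 682 CPM against 82.1 to 179 CPM in the other 7, and Fbxo32 (atrogin-1) at 971 against 200.3 to 530 CPM. Pdk4, a brake on glucose oxidation, stood at 1009 against 129 to 468 CPM, and the glucocorticoid target Fkbp5 at 205 against 19.6 to 67.9 CPM. The metallothionein Mt2 stood at 216 against 5.17 to 35.8 CPM. Of the 9 denervation genes 7 were highest there, among them Runx1 (21.4 against 2.88 to 9.63 CPM), Myog (16.7 against 2.68 to 6.31 CPM) and the acetylcholine receptor subunit gene Chrna1 (60.3 against 15.4 to 26.3 CPM). Of the 26 p53 targets 7 were highest there, a share close to the 27.5% of all tested genes. Those included Sesn1 (72 against 10.1 to 15.2 CPM), Gadd45a (40 against 6.54 to 22.8 CPM), Eda2r (34.4 against 7.43 to 17.1 CPM) and the apoptosis gene Bax (11.9 against 5.82 to 6.62 CPM), while Ccng1, the most abundant of the list, was within the range of the others (947 against 893 to 1217 CPM). The pocket protein genes Rb1 (38.3 against 19.6 to 28.3 CPM) and Rbl2 (109 against 51.6 to 72.4 CPM) were also highest in this mouse, while the third, Rbl1, was within the range of the others (2.3 against 1.73 to 3.38 CPM). Of the 19 genes of their list 4 were highest there.

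Ranked by the ratio of WT mouse 2 to the next highest mouse, Cdkn1a was the fifth of all tested genes. The 4 ahead of it were Lcn2 (16.7 times), Orm1 (15.8 times), S100a8 (10.7 times) and Retnlg (9.56 times), acute-phase and neutrophil genes chosen here after their values were seen. The 2 neutrophil markers, S100a8 and S100a9, summed to 29.5 CPM in this mouse, to 0.597 to 3.37 CPM in the other WT mice and to 0.243 to 1.9 CPM in C2-/- mice. Macrophage markers summed to 48.8 CPM there, within the range of 21.1 to 60.2 CPM over the other mice. The part of any of these levels in the Cdkn1a result was not tested.

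**Figure D3:**
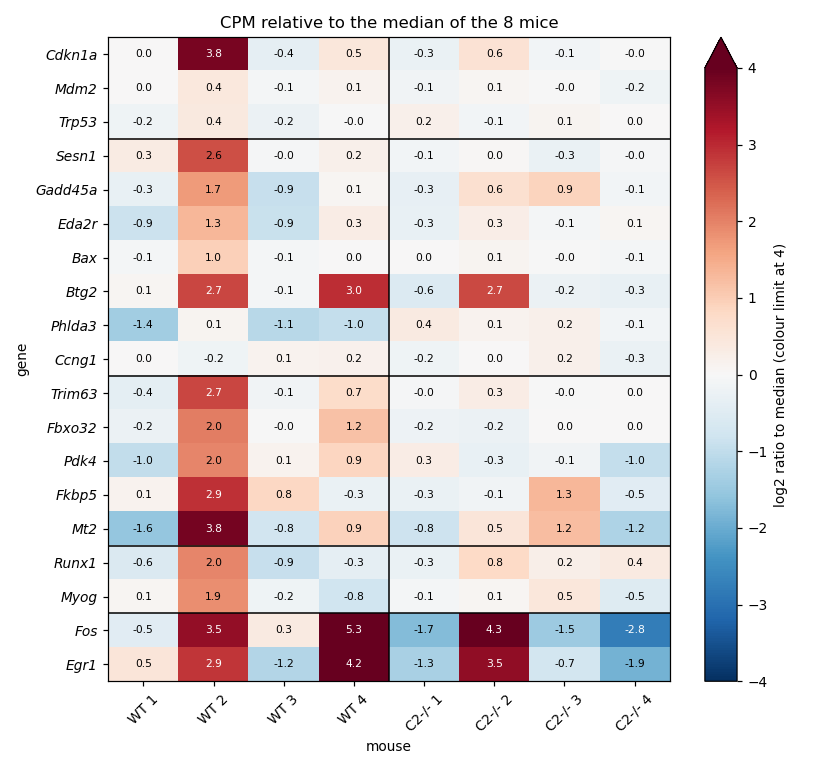
Log2 ratio of CPM to the median of the 8 mice (number and colour) for Cdkn1a, Mdm2 and Trp53, then p53 targets, glucocorticoid and FoxO genes, denervation genes and immediate early genes, separated by lines. WT mouse 2 lies above the median for every gene shown but Ccng1, whereas Fos and Egr1 are also high in WT mouse 4 and C2-/- mouse 2.

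Over the 8 mice, log2 Cdkn1a was compared with the log2 summed level of 6 lists by exact two-sided permutation. Pearson's r was 0.93 with the integrated stress response (p = 0.00729, adjusted p = 0.0437), 0.9 with the glucocorticoid and FoxO list (p = 0.0253, adjusted p = 0.0505) and 0.84 with the denervation list (p = 0.023, adjusted p = 0.0505). Spearman's rho was 0.9 (permutation p = 0.00456, adjusted p = 0.0274), 0.29 (p = 0.501, adjusted p = 0.699) and 0.6 (p = 0.132, adjusted p = 0.265) in the same order. After WT mice 2 and 4, the farthest from the median of each of these lists, were left out, r was 0.41, −0.08 and 0.14 over 6 mice (permutation p = 0.338, 0.932 and 0.774), so on the summed scale these relations did not hold without those mice. With the p53 targets r was 0.24 (permutation p = 0.689, adjusted p = 0.689) and rho 0.24 (p = 0.582, adjusted p = 0.699), and r without the 2 farthest mice was 0.1. Ccng1 made up most of that sum, and with the mean log2 CPM of the list, which weighs its genes equally, r was 0.73 (permutation p = 0.0259, adjusted p = 0.0699), and 0.8 without WT mice 1 and 2 (permutation p = 0.0278). On that mean log2 scale r with the denervation list was 0.91 (permutation p = 0.0349, adjusted p = 0.0699), and 0.95 without WT mouse 2 and C2-/- mouse 3 (permutation p = 0.00972). As deviations of the summed levels from the genotype means, r was 0.94 with the integrated stress response and 0.25 with the p53 targets. Without WT mice 2 and 3 the former was 0.91, with the WT means still taken over all 4 mice. No p is given for these deviations, which can be exchanged only within a genotype. Atf4, Chac1 and Ppp1r15a made up most of the summed integrated stress response in WT mouse 2 (339, 194 and 174 of 889 CPM). Of its 14 tested genes only these and Ddit4 were highest in that mouse, beside 27.5% of all tested genes. On the mean log2 scale r with the integrated stress response was 0.61 (permutation p = 0.0469, adjusted p = 0.0703) and rho 0.52 (p = 0.197, adjusted p = 0.236). Without WT mouse 2 and C2-/- mouse 4 that r was 0.35 (permutation p = 0.456). On the summed scale r with the immediate early genes was 0.44 (permutation p = 0.231, adjusted p = 0.346) and rho 0.64 (p = 0.0962, adjusted p = 0.265). Without the 2 farthest mice that r was 0.9 (permutation p = 0.128). With the macrophage markers r was 0.21 (permutation p = 0.588, adjusted p = 0.689) and rho −0.05 (p = 0.935, adjusted p = 0.935), and r without the 2 farthest mice was 0.19.

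C2-/- mouse 1, which held most of the Cdkn2a reads, also held the transcripts of dividing cells. The proliferation antigen gene Mki67 had 78 reads there and 1 to 13 in the other mice, and the topoisomerase gene Top2a had 92 against 3 to 9. Cyclin A (Ccna2) had 61 reads against 0 to 7, cyclin B (Ccnb1) 27 against 0 to 6 and their kinase Cdk1 25 against 0 to 3. Of the 16 proliferation markers 11 were highest in this mouse, as were 6 of the 19 genes for CDKs, cyclins and pocket proteins. Both counts include genes that failed the filter. Of the 9 tested markers, Mcm3, Mcm4, Mcm5 and Mcm6 were highest there. Among the 14 tested genes for CDKs, cyclins and pocket proteins only Ccnd1 was, beside 10.6% of all tested genes. Of all 16 markers, another 3 were highest in WT mouse 2, 1 in WT mouse 4 and 1 in C2-/- mouse 4. Those of WT mouse 2 were Pcna (21.7 against 15.3 CPM in C2-/- mouse 1), Mcm7 (12.7 against 9.84 CPM) and Rrm2 (3.57 against 1.82 CPM). The 3 lymphocyte markers summed to 2.8 CPM in C2-/- mouse 1 against 0.217 to 1.45 CPM in the other mice. Most of that sum was Cd79a, a B cell gene, at 2.57 CPM. Satellite cell markers, at 26.6 CPM in C2-/- mouse 1, were within the range of the other mice (23.6 to 31.9 CPM). Most of that sum was Cdh15, at 25.4 CPM. Pax7 was highest in this mouse (0.871 against 0.859 CPM in WT mouse 3) and Myf5 lowest (0.265 CPM). The part of these transcripts in the Cdkn2a level was not tested.

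**Figure D4:**
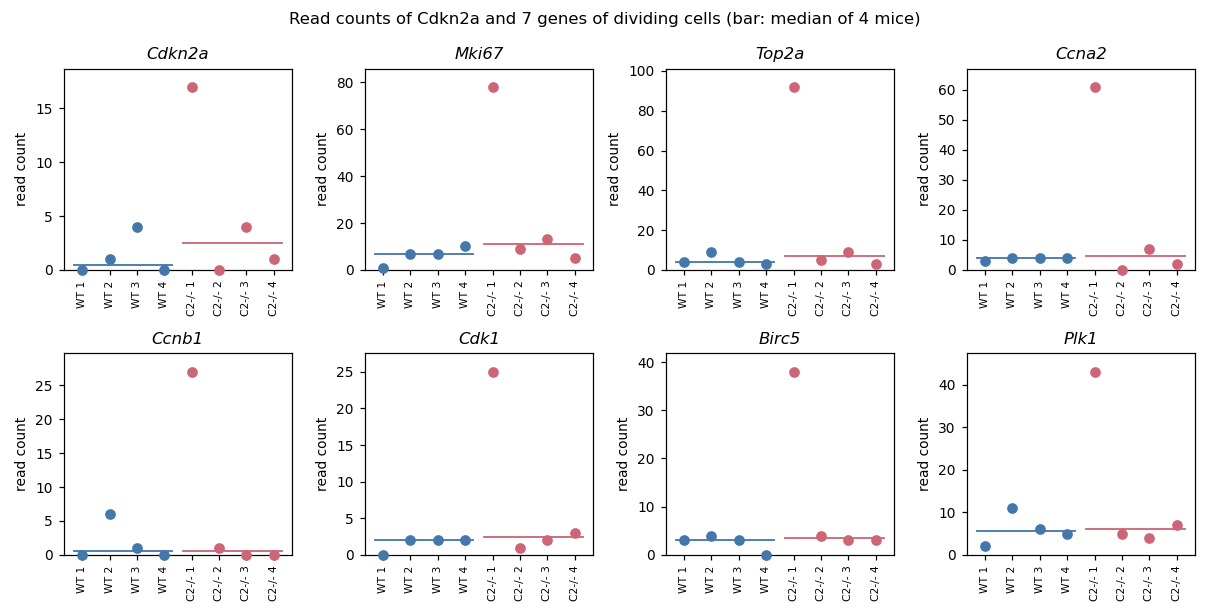
Read counts of Cdkn2a and of 7 genes of dividing cells in each mouse, with blue points for WT and red points for C2-/- mice and lines at the medians of 4 mice. In all 8 panels C2-/- mouse 1 is the highest, at 17 reads for Cdkn2a and 92 for Top2a.

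The genes around the inhibitors were counted from 10 functional lists, of which 117 genes passed the filter. None of the 117 passed an adjusted p of 0.05 with edgeR or limma-voom, and 2, Mcm6 and Igfbp3, did with DESeq2. With an unadjusted edgeR p under 0.05, 5 were higher and 5 lower in C2-/- muscle, or 4.27% each way, beside 3.38% higher and 1.91% lower of all tested genes. The lists of CDKs, cyclins and pocket proteins (14 tested), p53 regulators (14 tested) and immediate early genes (8 tested) had none. The smallest p in them belonged to the cyclin D2 gene Ccnd2 (log2 fold change 0.41, SE 0.19), the p53-binding protein gene Trp53bp1 (0.32, SE 0.21) and the transcription factor gene Atf3 (−1.5, SE 0.94). Among 9 tested proliferation markers the helicase subunit gene Mcm6 was higher, at 0.81, 0.255, 0.448 and 0.362 CPM in WT and 3.44, 1.82, 1.06 and 0.971 CPM in C2-/- muscle. The genotypes did not overlap for Mcm6, though its levels were low (log2 fold change 1.95, SE 0.5, edgeR adjusted p = 0.571, DESeq2 adjusted p = 0.0498, 0.0498 to 1 over all alternatives).

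Of 23 tested p53 targets, Phlda3 and Ei24 were higher and Sesn1 lower in C2-/- muscle at an unadjusted p under 0.05, beside 3.38% higher and 1.91% lower of all tested genes, and the median log2 fold change was 0.03. Phlda3, an inhibitor of Akt signalling, stood at 63.8, 178, 77.1 and 85.1 CPM in WT and at 214, 183, 193 and 154 CPM in C2-/- muscle. All 4 C2-/- mice exceeded WT mice 1, 3 and 4, and WT mouse 2 lay among the C2-/- mice (log2 fold change 0.88, SE 0.29, edgeR adjusted p = 0.755). Without WT mouse 2 its log2 fold change was 1.31 (SE 0.14, edgeR adjusted p = 0.00812), over 19 alternatives it ranged from 0.71 to 1.41, and the adjusted p ranged from 0.00812 to 1. Ei24, an endoplasmic reticulum protein gene, averaged 63.3 CPM in WT and 77.3 CPM in C2-/- muscle (log2 fold change 0.29, SE 0.12, edgeR adjusted p = 0.918). The log2 fold change of Sesn1, which restrains mTORC1, was −1.31 (SE 0.53, edgeR adjusted p = 0.914) with and −0.25 (SE 0.13) without WT mouse 2. Over the C2-/- mice, where Phlda3 was high, Cdkn1a ranged from 24.1 to 43.1 CPM. It ranged from 22.6 to 39.7 CPM in WT mice 1, 3 and 4, and WT mouse 2, at 405 CPM, was high in both genes.

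Of 16 tested genes of the secretory and other senescence list, Igfbp4 was higher and Igfbp3 and Icam1 lower at an unadjusted p under 0.05, beside the same 3.38% and 1.91% of all tested genes. Igfbp3, which binds insulin-like growth factors, stood at 12.4, 21.1, 16.1 and 8.14 CPM in WT and at 8.1, 5.69, 4.26 and 7.35 CPM in C2-/- muscle. The genotypes were apart for Igfbp3, by the narrow gap between WT mouse 4 and C2-/- mouse 1 (log2 fold change −1.18, SE 0.29, edgeR adjusted p = 0.571, DESeq2 adjusted p = 0.0354, 0.0354 to 1 over all alternatives). Icam1, an adhesion molecule of activated endothelium, stood at 4.63, 8.97, 4.82 and 11.3 CPM in WT and at 2.76, 3.53, 4.47 and 4.51 CPM in C2-/- muscle. Its 2 highest values were in the WT mice with high immediate early genes, but C2-/- mouse 2, also high in those genes, had 3.53 CPM. The log2 fold change of Icam1 was −0.96 (SE 0.31, edgeR adjusted p = 0.755) over all mice. It was −0.26 (SE 0.26) without WT mice 2 and 4 and C2-/- mouse 2. Igfbp4 averaged 39.5 CPM in WT and 47.8 CPM in C2-/- muscle (log2 fold change 0.28, SE 0.12, edgeR adjusted p = 0.927). The chemokine gene Cxcl1 ranged from 8.61 to 17.5 CPM in the 3 mice with high immediate early genes and from 0 to 0.154 CPM in the other 5. The p53 target and early gene Btg2 ranged from 96.3 to 119.6 CPM in those 3 and from 10.4 to 16.2 CPM in the other 5. Their part in the genotype comparison of this list was not tested beyond the fit without the 3 mice. The median log2 fold change of the list was 0.08 in that fit (15 genes tested) and −0.21 over all mice (16 tested).

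In the integrated stress response list (14 tested) Psat1, an enzyme of serine synthesis, was higher, with 5.07 CPM in C2-/- mouse 1, 0.893 to 0.971 CPM in the other C2-/- mice and 0.231 to 0.693 CPM in WT (log2 fold change 1.89, SE 0.65, edgeR adjusted p = 0.781). Without C2-/- mouse 1 its log2 fold change was 0.84 (SE 0.41), no longer with an unadjusted p under 0.05. In the glucocorticoid and FoxO list all 10 genes had a lower fitted level, with a median log2 fold change of −1.1 that was −0.14 without WT mouse 2. Fbxo32 alone had an unadjusted p under 0.05 (log2 fold change −1.13, SE 0.42, edgeR adjusted p = 0.857), and −0.53 (SE 0.28) was left without that mouse. In the denervation list (8 tested) the acetylcholine receptor subunit gene Chrnd was lower (log2 fold change −0.84, SE 0.27, edgeR adjusted p = 0.755), with 3.87 to 9.08 CPM in WT and 2.83 to 3.82 CPM in C2-/- muscle.

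**Figure D5:**
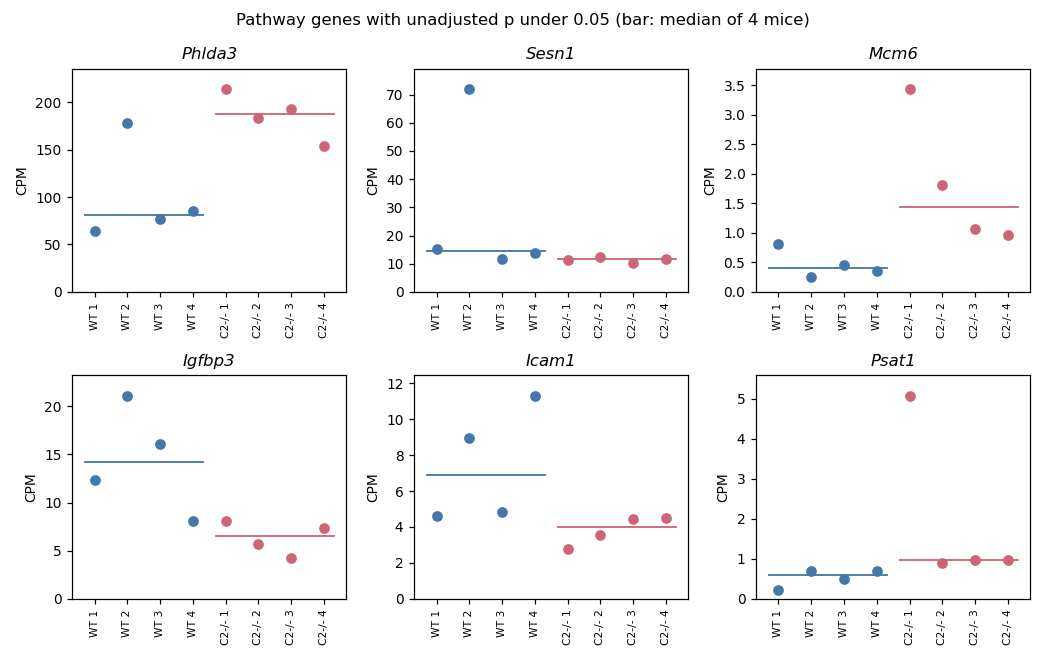
CPM of 6 list genes with an unadjusted p under 0.05 in each mouse, with blue points for WT and red points for C2-/- mice and lines at the medians of 4 mice. Phlda3 is high in all C2-/- mice and in WT mouse 2, Sesn1 in WT mouse 2, and Psat1 in C2-/- mouse 1. Mcm6, Igfbp3, Icam1 and Psat1 do not overlap between genotypes, beside 3.38% of all tested genes. The 6 genes were chosen for a low p, which favours such separation.

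For each tested gene of the set, the 3 genes with the most similar log2 CPM over the 8 mice were taken from 12541 others, by Pearson's r, as a description. Cdkn1a was most like Nob1 (r = 0.993), Plvap (0.989) and Pnmt (0.989), each highest in WT mouse 2. Mdm2 was most like Id1 (0.986), Dnttip2 (0.984) and Washc2 (0.982), and Trp53 most like Gpx1 (0.974), Shld1 (0.957) and Polr2e (0.957), again all highest in that mouse. Cdkn1b was most like Adhfe1 (0.977), Pex14 (0.961) and Lta (0.945), and Cdkn1c most like Tmem63a (0.954), Ccs (0.928) and Fggy (0.917). Cdkn2b was most like Dnaja4 (0.988), Tfpi (0.953) and Htra2 (0.944), and Cdkn2c most like Zfp951 (0.93), Rgs2 (0.922) and Faim (0.916). These coefficients are the highest of 12541 each, over 8 mice that share their library and depth between genes, and carry no test.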

How the data were processed

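Poly(A) RNA of TA muscle from 4 WT Old and 4 C2-/-Old mice was sequenced on DNA nanoballs. Per the labels and the study's methods, the authors aligned reads with HISAT to GRCm38.p6 and counted them per gene; the labels also name Bowtie2 and DESeq2. The labels conflict on age: the age tag and extraction text give 22 months, and the growth text gives 2 months; 22 months was used. The deposited expected counts (estimated counts, 5.5% to 6.53% of values not whole) were rounded, and the deposited TPM, which the authors scaled per transcript length and library, were used for levels between genes. The 8 FPKM columns per mouse and the authors' own fold changes and p-values were not used.

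Counts were fitted with edgeR 4.0.16 (TMM, filterByExpr, quasi-likelihood test) over 12542 genes, and p-values were adjusted by Benjamini-Hochberg over all of them; CPM used TMM-scaled library sizes. Genes that failed the filter were compared by exact permutation. Alternatives used limma 3.58.1, DESeq2 1.42.0, other scaling and filters, covariates, a replicate block and fits without each mouse. The floor for 0 reads was 3 reads per library (0.104 to 0.116 CPM) and covers counting error. The counts per gene came with no stated strand. The labels number the muscles without saying that each came from a separate mouse; each is called a mouse here, and p-values measure the spread between these samples.

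The 9 genes and all lists were chosen with earlier results of these data known. Named were all 9 genes, Mybpc2, in each list at most 2 higher and 2 lower genes, by the lowest p under 0.05 (failing that, the 1 of lowest p), and the 3 genes most like each tested gene; other names were chosen after their values were seen. Gene positions and promoter sequences are those of RefSeq on GRCm38.p6.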

Additional observations from a re-analysis of the deposited data

Results flagged for a closer look

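Each of 36 groups of 4 mice (9 genes, Mybpc2 and 8 list sums in both genotypes) was searched for a mouse far from the other 3. Chance alone meets this rule in about 5% of groups, and 5 were found. The groups share mice and are not independent, so no excess is read from that number. Cdkn1a in WT mouse 2, at 405 CPM, had a gap of 0.955 of the WT range. The summed level of CDKs, cyclins and pocket proteins in the same mouse was 357 CPM (gap 0.837 of the range), with Rbl2 and Rb1 among its raised genes. The summed proliferation markers of C2-/- mouse 1 were 68.2 CPM (0.881). The summed immediate early genes of C2-/- mouse 2 were 1518 CPM (0.974), and Mybpc2 in C2-/- mouse 3 was 38.3 CPM (0.985). Cdkn2a in C2-/- mouse 1 and Gdf15 in WT mouse 4 did not meet this rule.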

How the results depend on the processing

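None of the 7 tested genes of the set passed an adjusted p of 0.05 under any alternative run. The log2 fold change of Cdkn1a was −2.35 to 0.01 over fits without 1 mouse, 0.03 without WT mice 2 and 4 and C2-/- mouse 2, and 0.11 without WT mouse 2 and C2-/- mouse 1 (both chosen after seeing the data); limma-voom gave −0.94, its sample weights −0.23, and the covariates for immediate early genes and tendon markers −0.9 and −0.37. Trp53 ranged from −0.03 to 0.19 without 1 mouse. Cdkn1b, Cdkn1c and Mdm2 stayed negative and Cdkn2b and Cdkn2c positive in 19 alternatives each. The replicate numbers did not pair the mice: correlations of same-numbered deviations were 0.27, 0.04, −0.05 and 0.02. With the number as a replicate block, Cdkn1a was −0.86, the genes past adjusted p 0.05 and 1.5-fold were 4, and list genes with p under 0.05 were 3 higher and 7 lower.

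Those counts were 4 genes over all mice, 38 with DESeq2, 4 to 7 without 1 mouse (7 without WT mouse 2) and 2 without the 3 mice with high immediate early genes. Genes with p under 0.05 and over 1.5-fold were 380, 584 without the filter and 325 to 592 without 1 mouse (592 without WT mouse 3). List genes with p under 0.05, 5 higher and 5 lower, were 9 and 9 without the filter, 3 and 2 with the immediate early covariate, 3 to 6 and 3 to 13 without 1 mouse, and 6 and 3 without WT mouse 2 and C2-/- mouse 1. The difference of Cdkn2a was 0.0124 to 0.227 CPM and that of Gdf15 −0.204 to −0.0267 CPM without 1 mouse. As deviations from the genotype means, Cdkn1a correlated at r = 0.89 with the glucocorticoid and FoxO list and 0.82 with the denervation list, given without a p. With mean log2 CPM, r with the integrated stress response was 0.61 (permutation adjusted p = 0.0703). The cause of these shifts was not tested. Depth limits Cdkn2a and Gdf15, at 0 to 20 reads a library.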
